A study of Homo sapiens with 6 samples.

Results

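RGS proteins, the regulators of G protein signalling, were followed through 10 genes (RGS2, RGS3, RGS4, RGS5, RGS7, RGS10, RGS16, RGS17, RGS19 and RGS20) in SY5Y neuroblastoma cells that overexpressed DLX5 and in control SY5Y cells. The rows were taken by gene name. Of the 58735 genes of the count table, 11 rows carried one of the 10 names, because 2 rows are named RGS5, and all 11 were among the 17269 genes with enough counts to be tested. The 10 genes were picked with the fold changes of these libraries known, so their own fold changes are given as a description, with no p-value.

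The study compared 3 libraries of SY5Y cells labelled as DLX5 overexpression with 3 libraries of SY5Y cells labelled as control, by bulk RNA sequencing of total RNA. SY5Y is an established line from a neuroblastoma, a childhood tumour of the sympathetic nervous lineage, and DLX5 is a homeobox transcription factor. The construct and promoter that drove DLX5, what the control cells carried, and whether the overexpressing line was a single clone are not given in the sources used here. Whether the 3 libraries of a group came from separate cultures is not stated in the labels, so the p-values rest on a spread that may be technical only.

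An RGS protein binds the active, GTP-bound alpha subunit of a heterotrimeric G protein and speeds up its GTP hydrolysis, which ends the signal of a receptor sooner. Most RGS proteins act on alpha subunits of the Gi and Go kind, many also on Gq, and the RZ subfamily is known for acting on Gz. In sympathetic neurons RGS proteins are known for shaping how muscarinic and adrenergic receptors inhibit calcium channels and gate potassium channels. The family is divided by sequence into the small R4 proteins, the R7 proteins that need the beta subunit GNB5, the R12 proteins and the RZ proteins. The R4 proteins RGS4, RGS5 and RGS16 are further known as substrates of the arginine branch of the N-degron route, which degrades them after oxidation of their first cysteine.

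Total counts ran from 14644077 to 16886026 per library, and levels are given as TMM-scaled CPM or, to compare genes of different length, as the FPKM values that the authors deposited. After a level ± is the SD over 3 libraries, and after a log2 fold change it is the SE of the fit. DLX5 itself had 1582, 1569 and 1677 CPM in DLX5-overexpressing cells, against 12.4, 12.3 and 13.8 CPM in control cells (log2 fold change 6.97 ± 0.08 SE, edgeR adjusted p = 1.86e-28). The labelled lineage was present in both groups, but its marker genes were lower with DLX5: all 10 sympathetic markers tested passed in that direction, and their summed level was 1970 to 2088 CPM in DLX5-overexpressing cells, against 5435 to 5913 CPM in control cells. Of the 8 fibroblast markers 7 passed as higher, with sums of 6478 to 6726 CPM in DLX5-overexpressing cells and 1357 to 1397 CPM in control cells. Of the 9 pericyte and smooth muscle markers tested 5 passed as higher and none as lower, with sums of 792 to 827 CPM in DLX5-overexpressing cells and 389 to 439 CPM in control cells. The 7 leukocyte and erythroid markers summed to 0.67 to 1.26 CPM in DLX5-overexpressing cells and 0.48 to 1.04 CPM in control cells, with CD3E at 0 in all 6 libraries, and the 5 endothelial markers to 2.32 to 3.43 CPM in DLX5-overexpressing cells and 1.21 to 1.52 CPM in control cells. Over all genes tested, 29.8% passed as higher and 28.8% as lower at an edgeR adjusted p under 0.05. The part of these marker differences in the RGS levels below was not tested.

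RGS4 and RGS5, the most abundant RGS transcripts of control cells, were lower in DLX5-overexpressing cells, with control means 9.0 and 5.58 times the DLX5 means. RGS10 and RGS20 were more than 2-fold higher, and the other 6 genes differed by less than 2-fold in either direction. Of the 11 rows, 10 passed an edgeR adjusted p under 0.05, where 58.6% of all genes tested passed. Of these, 3 were higher with DLX5 (RGS3, RGS10 and RGS20), where 29.8% of all genes passed as higher, and 7 were lower (RGS4, RGS5, RGS7, RGS16, RGS17, RGS19 and the second RGS5 row), where 28.8% of all genes passed as lower. RGS2 did not pass. The CPM of the groups did not overlap for 9 of the 11 rows, where the background is 62.5%. At least a 2-fold difference was seen in 2 rows that were lower, where the background is 5.18%, and in 2 that were higher, where it is 11.3%. The median log2 fold change was -0.39 over the 11 rows and -0.0018 over all genes tested. Since the genes were picked on this contrast, nothing is read from these counts, and in a design of 3 libraries against 3 an exact permutation test of a single gene cannot give a p below 0.1.

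**Figure D1:**
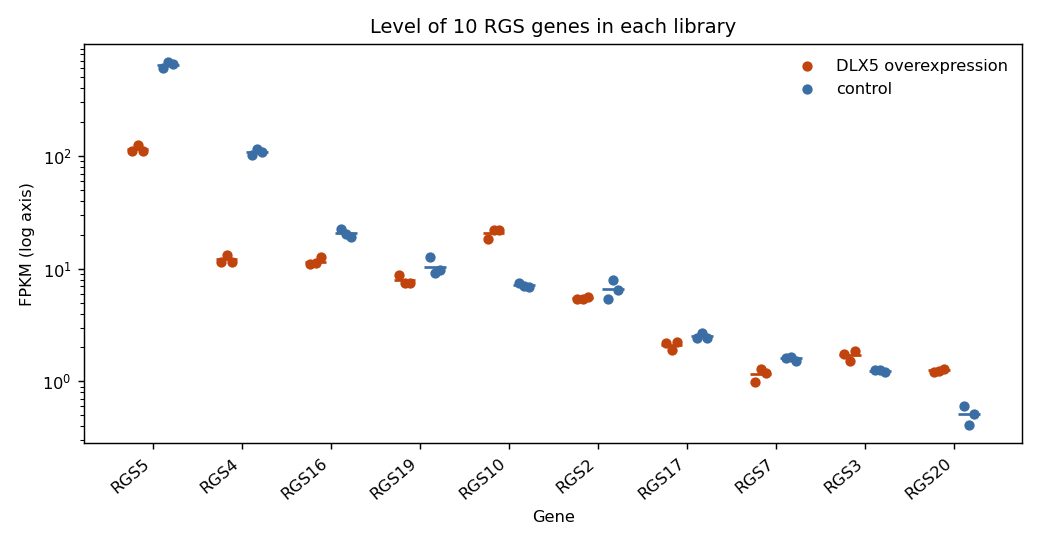
FPKM (log axis) of the 10 RGS genes in each library, with DLX5-overexpressing cells in orange to the left of control cells in blue, a point per library and a bar at the group mean. RGS5 lies between 111 and 125 FPKM with DLX5 and between 604 and 683 FPKM in control cells, and RGS10 is among the genes whose points lie higher with DLX5.

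RGS5, an R4 protein best known as a marker of pericytes, was the most abundant RGS gene in both groups. It had 769, 855 and 764 CPM in DLX5-overexpressing cells, against 4153, 4697 and 4467 CPM in control cells. All 3 DLX5 libraries lay below all 3 controls, the control mean was 5.58 times the DLX5 mean, and the log2 fold change was -2.48 ± 0.07 (SE). By CPM, RGS5 ranked at place 91 of all genes in DLX5-overexpressing cells and at place 7 in control cells. It took 0.0776% ± 0.00422 of a library's counts in DLX5-overexpressing cells and 0.454% ± 0.0281 in control cells (SD, n = 3 each). In length-scaled terms it averaged 116 ± 7.91 FPKM in DLX5-overexpressing cells and 646 ± 39.4 FPKM in control cells (SD, n = 3 each). In bulk RNA, fewer cells that express a gene and less of its RNA per cell cannot be told apart. Of the 9 pericyte and smooth muscle markers tested above, 5 passed as higher and none as lower with DLX5, and their relation to the RGS5 level was not tested. The gene (ENSG00000143248) spans chr1:163111121-163321791 on the minus strand of GRCh38.

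RGS4, an R4 protein known from the brain and from neuronal cells as a brake on Gi and Gq signalling, showed the largest fold difference of the 10 genes. It had 56.5, 64.3 and 56.6 CPM in DLX5-overexpressing cells, against 497, 569 and 532 CPM in control cells. The groups were far apart, with the highest DLX5 library well under the lowest control. The control mean was 9.0 times the DLX5 mean, and the log2 fold change was -3.17 ± 0.07 (SE). Its level was 12.1 ± 0.962 FPKM in DLX5-overexpressing cells and 109 ± 7.26 FPKM in control cells (SD, n = 3 each), and its rank among all genes by CPM was 4175 in DLX5-overexpressing cells and 182 in control cells. The gene (ENSG00000117152) spans chr1:163068775-163076802 on the plus strand, and 34318 bases separate its end from the nearest end of RGS5.

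The start regions of RGS4 and RGS5 are shown because these genes carried most of the RGS transcript difference, and that of RGS10 because it differed in the opposite direction. The windows are RefSeq promoters of GRCh38.p14, each with 250 bases before and 50 bases after an annotated start site, written 5′ to 3′ on the gene's strand with CG dinucleotides in capitals. RefSeq lists 4 windows for RGS4, 2 for RGS5 and 2 for RGS10, and gene-level counts do not tell which start the cells used.
RGS4, chr1:163069111-163069410, plus strand: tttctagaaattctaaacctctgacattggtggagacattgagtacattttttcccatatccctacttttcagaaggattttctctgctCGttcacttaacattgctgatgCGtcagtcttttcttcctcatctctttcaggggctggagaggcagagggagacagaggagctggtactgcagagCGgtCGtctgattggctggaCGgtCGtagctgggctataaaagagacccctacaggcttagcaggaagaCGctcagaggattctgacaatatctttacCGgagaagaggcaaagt
RGS5, upstream start, chr1:163321686-163321985, minus strand: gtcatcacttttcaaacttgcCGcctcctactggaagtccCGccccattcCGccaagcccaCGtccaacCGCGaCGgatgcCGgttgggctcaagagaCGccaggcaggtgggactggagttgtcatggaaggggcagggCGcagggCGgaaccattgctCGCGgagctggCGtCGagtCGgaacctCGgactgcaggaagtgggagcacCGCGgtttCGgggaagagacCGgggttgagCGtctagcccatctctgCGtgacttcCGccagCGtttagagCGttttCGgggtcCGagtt
RGS5, downstream start, chr1:163202867-163203166, minus strand: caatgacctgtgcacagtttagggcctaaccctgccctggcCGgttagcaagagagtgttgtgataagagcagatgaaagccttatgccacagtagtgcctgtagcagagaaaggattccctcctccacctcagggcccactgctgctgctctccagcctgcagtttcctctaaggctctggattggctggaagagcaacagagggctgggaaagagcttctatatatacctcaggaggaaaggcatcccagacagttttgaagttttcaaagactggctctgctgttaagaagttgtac
RGS10, chr10:119542670-119542969, minus strand: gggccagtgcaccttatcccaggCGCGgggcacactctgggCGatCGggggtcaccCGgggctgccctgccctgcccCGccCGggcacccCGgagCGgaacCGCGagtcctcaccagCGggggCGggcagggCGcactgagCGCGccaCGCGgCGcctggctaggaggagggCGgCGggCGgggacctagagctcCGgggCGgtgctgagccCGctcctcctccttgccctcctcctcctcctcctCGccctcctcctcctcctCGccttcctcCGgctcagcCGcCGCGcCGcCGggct
The RGS4 window held 8 CG dinucleotides at a GC content of 47.0%, an observed over expected CpG ratio of 0.487, whereas the median of all 35116 windows was 0.579. The upstream RGS5 window held 28 (ratio 0.948), the downstream one 1 (ratio 0.0514), and the RGS10 window 33 (ratio 0.744). The other RGS10 window, which is not printed, held 5 (ratio 0.285). The 4 RGS4 windows had ratios from 0.108 to 0.535, which lie between those of the 2 RGS5 windows. Each of 5 short motifs was searched on both strands in the 22 windows of 9 of the genes, with RGS20 left out. TAATTA and TAATTG, letters that homeodomains of the DLX kind are known to bind, were in 0 of the 22 windows and in 4.84% and 7.38% of all windows. TATAAA was in 2 of the 22, among them the RGS4 window above, where it starts 30 bases before the start site, and in 11.5% of all windows. TGACGTCA, the cyclic AMP response element, was in 0 of the 22 and 1.85% of all windows. AGATAA, one form of the letters that zinc finger factors such as GATA3 bind, was in 0 of the 22 and 10.3% of all windows. TGATAA, another such form, was not searched over all windows, so no share is given. The downstream RGS5 window above holds it, and so do a window of RGS3, which was higher with DLX5, and a window of RGS7. These matches describe letters in short windows only.

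RGS16, an R4 protein known for its induction by stimuli and for acting on Gi and Gq, had 26.8, 27.2 and 31.1 CPM in DLX5-overexpressing cells, against 55.6, 50.2 and 47.1 CPM in control cells. Each DLX5 library lay below each control. The log2 fold change was -0.84 ± 0.08 (SE), and the means were 11.6 ± 0.951 FPKM in DLX5-overexpressing cells and 20.8 ± 1.76 FPKM in control cells (SD, n = 3 each). The gene (ENSG00000143333) lies on the minus strand at chr1:182598623-182604408.

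RGS3, an R4 gene with long and short protein forms, was the only R4 gene tested that was higher with DLX5. It had 24.5, 21.1 and 26 CPM in DLX5-overexpressing cells, against 17.4, 17.6 and 16.7 CPM in control cells. The groups did not overlap, and the difference was small beside that of RGS4, with a log2 fold change of 0.47 ± 0.10 (SE). Its level was 1.71 ± 0.174 FPKM in DLX5-overexpressing cells and 1.24 ± 0.0300 FPKM in control cells (SD, n = 3 each). The gene (ENSG00000138835, chr9:113444731-113597743, plus strand) has several promoters, and the counts sum its forms.

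RGS2, known for its preference for Gq, had 11.4, 11.3 and 11.9 CPM in DLX5-overexpressing cells, against 11.5, 16.8 and 13.8 CPM in control cells. Control replicate 1 lay within the range of the DLX5 libraries, the groups overlapped and the gene did not pass the threshold. The log2 fold change was -0.29 ± 0.13 (SE). Without control replicate 1 it was -0.41 and passed, and with library totals in place of TMM it was -0.35 and passed. The gene (ENSG00000116741) lies at chr1:192809039-192812283 on the plus strand.

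The second row named RGS5 (ENSG00000232995, chr1:163244505-163321894) has the antisense biotype in the annotation, although the table lists it on the same minus strand as RGS5, with which it shares 77287 bases. It held 60 counts in DLX5-overexpressing cells and 102 in control cells, against 252263 counts of RGS5 over the 6 libraries. Its levels were 1.14, 0.969 and 1.58 CPM in DLX5-overexpressing cells, against 1.47, 2.16 and 2.68 CPM in control cells, the groups overlapped, and the log2 fold change was -0.77 ± 0.31 (SE). It no longer passed without DLX5 replicate 1 (-0.71), without DLX5 replicate 2 (-0.63), without control replicate 2 (-0.76) or without control replicate 3 (-0.57), nor with DESeq2 (-0.78) or limma on log2(FPKM + 0.1) (-0.62). Counts at this locus cannot be assigned with certainty between the rows.

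RGS10, the small R12 protein known from microglia and other immune cells and acting on Gi alpha subunits, differed in the opposite direction to RGS4 and RGS5. It had 23.1, 27.8 and 28.1 CPM in DLX5-overexpressing cells, against 9.51, 8.81 and 8.71 CPM in control cells. The lowest DLX5 library was more than 2-fold above the highest control. The DLX5 mean was 2.92 times the control mean, the log2 fold change was 1.55 ± 0.11 (SE), and the level was 20.8 ± 2.25 FPKM in DLX5-overexpressing cells and 7.14 ± 0.347 FPKM in control cells (SD, n = 3 each). The gene (ENSG00000148908) lies on the minus strand at chr10:119499828-119542708. The 7 leukocyte and erythroid markers above summed to 0.67 to 1.26 CPM in DLX5-overexpressing cells and 0.48 to 1.04 CPM in control cells. Their relation to the RGS10 level was not tested.

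The 3 RZ genes were all members, and 1 was higher while 2 were lower. RGS20, also called RGSZ1 and known for its selectivity for Gz, had 3.91, 4.0 and 4.2 CPM in DLX5-overexpressing cells, against 1.94, 1.32 and 1.64 CPM in control cells. The groups did not overlap, and the log2 fold change was 1.31 ± 0.23 (SE), at a low level of 1.25 ± 0.0452 FPKM in DLX5-overexpressing cells and 0.509 ± 0.0974 FPKM in control cells (SD, n = 3 each). RGS19, also called GAIP, had 17.9, 15.4 and 15.5 CPM in DLX5-overexpressing cells, against 25.7, 18.7 and 19.7 CPM in control cells, and its log2 fold change was -0.39 ± 0.11 (SE). Control replicate 1 was the highest of the RGS19 values, and without it the log2 fold change was -0.25 and no longer passed. RGS17, also called RGSZ2, had 17.4, 15 and 17.9 CPM in DLX5-overexpressing cells, against 19.2, 21.4 and 19.2 CPM in control cells, with a log2 fold change of -0.25 ± 0.10 (SE). The RGS17 groups lay close together, and the gene no longer passed without DLX5 replicate 1 (-0.27), without DLX5 replicate 2 (-0.17) or without control replicate 2 (-0.20), nor with DESeq2 (-0.25) or with limma on log2(FPKM + 1) (-0.18) or log2(FPKM + 0.1) (-0.24). RGS20 (ENSG00000147509, plus strand), RGS19 (ENSG00000171700, minus strand) and RGS17 (ENSG00000091844, minus strand) lie at chr8:53851808-53959303, chr20:64073181-64079988 and chr6:153004459-153131249.

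RGS7, the only R7 gene of the 10 and a neuronal regulator of Go, lay just past the threshold. It had 2.59, 3.36 and 3.1 CPM in DLX5-overexpressing cells, against 4.22, 4.26 and 3.96 CPM in control cells. The groups did not overlap, and the log2 fold change was -0.46 ± 0.20 (SE). It no longer passed without DLX5 replicate 1 (-0.35), without DLX5 replicate 3 (-0.48) or without any one of the control replicates (-0.44 to -0.50), and neither with DESeq2 (-0.46), nor with no filter on low counts (-0.46), nor with the replicate number as a block (-0.46). The gene (ENSG00000182901) spans chr1:240775515-241357230 on the minus strand.

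**Figure D2:**
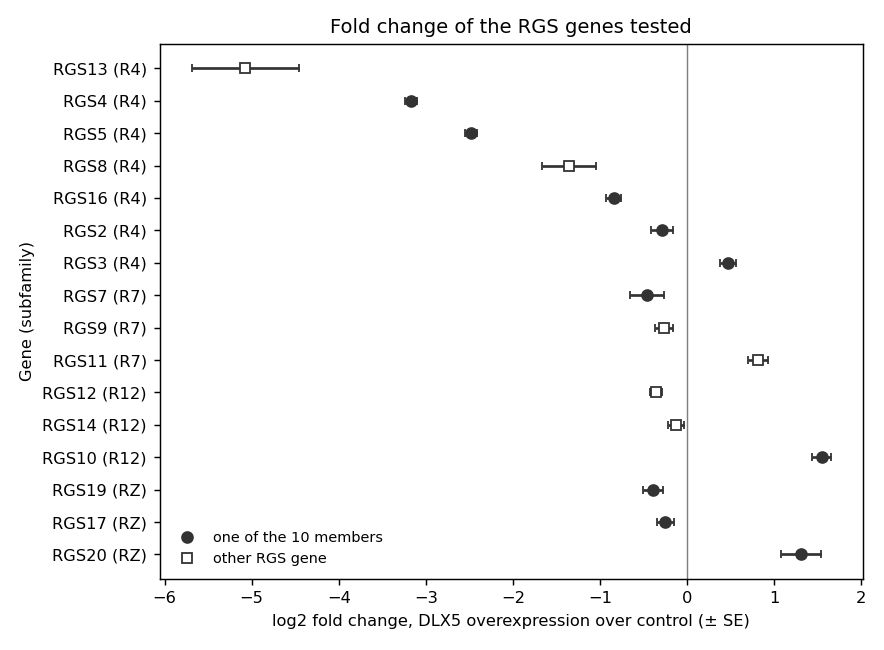
Fitted log2 fold change, DLX5 overexpression over control, with its SE for the 16 protein-coding RGS genes tested, ordered by subfamily from R4 at the top to RZ at the bottom; filled circles are the 10 members and open squares the other RGS genes. RGS4 (-3.17) and RGS5 (-2.48) lie far to the left and RGS10 (1.55) and RGS20 (1.31) to the right, and RGS13 rests on 2 counts with DLX5.

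The other 12 genes named RGS are all that remain of the family by name, and 6 were tested. They remain from a pick made with the fold changes known, so they are no unselected check of the members. Of the 6, 1 passed as higher, 4 passed as lower and 1 did not pass, where 29.8% of all genes passed as higher and 28.8% as lower. RGS12, a large R12 protein that also binds inactive Gi alpha subunits, had 59.4, 57.6 and 60.3 CPM in DLX5-overexpressing cells, against 79, 73.3 and 74.6 CPM in control cells, and each DLX5 library lay below each control (log2 fold change -0.35 ± 0.07 SE, edgeR adjusted p = 4.48e-05). RGS8, a neuronal R4 gene, averaged 0.807 ± 0.140 CPM in DLX5-overexpressing cells and 2.08 ± 0.350 CPM in control cells (SD, n = 3 each; log2 fold change -1.35 ± 0.31 SE, edgeR adjusted p = 0.000579). RGS13, an R4 gene known from B cells and mast cells, had 2 counts in all 3 DLX5 libraries together and 79 in all 3 control libraries; the library-scaled ratio of control over DLX5 was 39.9, with a 95% counting interval of 10.7 to 335 (edgeR adjusted p = 8.77e-08).

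RGS11, an R7 gene, had 18.5, 16.7 and 19.7 CPM in DLX5-overexpressing cells, against 11.6, 8.93 and 10.8 CPM in control cells (log2 fold change 0.81 ± 0.12 SE, edgeR adjusted p = 1.18e-06). Its locus overlaps FAM234A and ARHGDIG on the opposite strand, which hold 620% and 59.9% as many counts, and no source used here says whether counting kept the strands apart. RGS9, an R7 gene known from striatum and retina, had a log2 fold change of -0.27 ± 0.10 (SE, edgeR adjusted p = 0.0322). Its call was lost without DLX5 replicate 1 (-0.24), without DLX5 replicate 3 (-0.27), without control replicate 2 (-0.27) and without control replicate 3 (-0.18), and also with DESeq2 (-0.27) and with limma on log2(FPKM + 1) (-0.18) or log2(FPKM + 0.1) (-0.25). RGS14, the third R12 gene, did not pass (-0.13 ± 0.09 SE, edgeR adjusted p = 0.256). RGS6 had 0 counts in DLX5-overexpressing cells and 3 in control cells, RGSL1 had 0 counts in DLX5-overexpressing cells and 1 in control cells, and RGS1, RGS18, RGS21 and RGS22 had 0 counts in all 6 libraries.

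Counted by subfamily over all genes named RGS, the R4 group had 10 genes, of which 7 were tested, with 1 higher and 5 lower. The R7 group had 3 tested, with 1 higher and 2 lower. The R12 group had 3 tested, with RGS10 higher and RGS12 lower, and the RZ group 3, with 1 higher and 2 lower. Of all genes tested, 29.8% passed as higher and 28.8% as lower. The subfamily counts include the members, and nothing is read from them.

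The total of RGS transcripts was lower with DLX5, and in FPKM the difference lay in RGS4 and RGS5. Summed over all protein-coding RGS genes, the level was 189, 205 and 193 FPKM in DLX5-overexpressing cells, against 778, 867 and 824 FPKM in control cells. The control mean was 4.2 times the DLX5 mean. Without RGS4 and RGS5 the same sum was 65.5, 67.2 and 71.0 FPKM in DLX5-overexpressing cells, against 71.5, 67.4 and 64.5 FPKM in control cells. The groups overlapped and their means were close, at 67.9 ± 2.79 FPKM in DLX5-overexpressing cells and 67.8 ± 3.51 FPKM in control cells (SD, n = 3 each), while the genes within that sum differed in both directions. This closeness is one of FPKM, which gives short genes such as RGS10 (1252 bases) more weight than CPM does. In CPM the R4 genes other than RGS4 and RGS5 summed to 64.6 ± 4.64 in DLX5-overexpressing cells and 85.9 ± 4.46 in control cells. The R7 genes summed to 36.2 ± 1.44 CPM in DLX5-overexpressing cells and 32.6 ± 1.97 CPM in control cells.

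The make-up of the RGS pool therefore differed as well. RGS5 made up 59.1% ± 1.75 of the summed RGS FPKM in DLX5-overexpressing cells and 78.5% ± 0.672 in control cells (SD, n = 3 each). RGS4 made up 6.19% ± 0.233 in DLX5-overexpressing cells and 13.3% ± 0.167 in control cells. RGS10 made up 10.6% ± 0.903 in DLX5-overexpressing cells and 0.871% ± 0.0871 in control cells, and RGS16 made up 5.93% ± 0.576 in DLX5-overexpressing cells and 2.54% ± 0.331 in control cells. RGS16 thus took a larger share of a smaller pool although its own level was lower. By subfamily, R4 summed to 147 ± 8.30 FPKM in DLX5-overexpressing cells and 784 ± 46.7 FPKM in control cells. R12 summed to 30.7 ± 2.04 FPKM in DLX5-overexpressing cells and 18.7 ± 0.896 FPKM in control cells. In CPM the R12 sums overlapped, at 107 ± 3.06 in DLX5-overexpressing cells and 108 ± 4.26 in control cells. R7 summed to 7.05 ± 0.291 FPKM in DLX5-overexpressing cells and 6.31 ± 0.299 FPKM in control cells. RZ summed to 11.3 ± 0.736 FPKM in DLX5-overexpressing cells and 13.5 ± 1.85 FPKM in control cells.

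**Figure D3:**
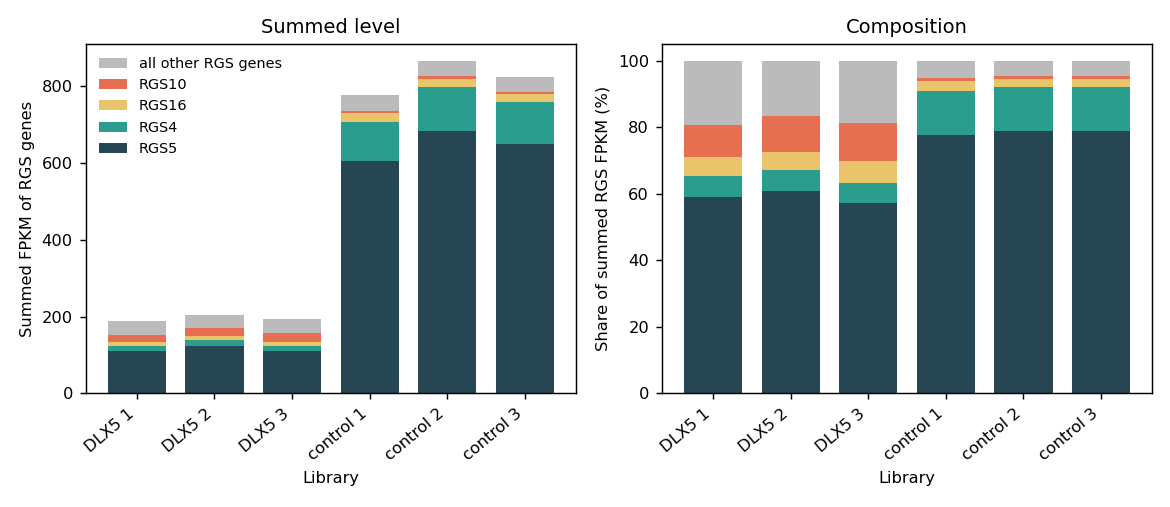
Left, summed FPKM of all protein-coding RGS genes in each library, split into RGS5, RGS4, RGS16, RGS10 and all other RGS genes; right, the same as a percentage of each library's sum. The 3 DLX5 libraries stand left of the 3 controls, with sums of 189 to 205 FPKM with DLX5 and of 778 to 867 FPKM in control cells, and the RGS10 share is about 10.6% with DLX5 and 0.871% in control cells.

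The order of the genes by FPKM differed between the groups below RGS5, which was first in both. Among the members, RGS10 was second in DLX5-overexpressing cells, ahead of RGS4 and RGS16, whose ranges overlapped. They were followed by RGS19, then by RGS2, RGS17, RGS3 and, with overlapping ranges, RGS20 and RGS7. In control cells the second was RGS4, the third RGS16 and the fourth RGS19, each clear of the next. RGS10 and RGS2 followed with overlapping ranges, and then RGS17, RGS7, RGS3 and RGS20 without overlap. The ratio of RGS5 to RGS4 FPKM was 9.65, 9.43 and 9.56 in DLX5-overexpressing cells, against 5.92, 5.86 and 5.96 in control cells, so the ratio held within each group while it differed between them. The ratio of RGS10 to RGS16 FPKM was 1.80 ± 0.164 in DLX5-overexpressing cells and 0.344 ± 0.0137 in control cells (SD, n = 3 each).

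Several RGS genes are neighbours on chromosome 1, which holds 11 of the protein-coding RGS genes and 5 of the members. Within 500 kb of RGS4 and RGS5, 6 other genes were tested, and 3 were higher, 2 lower and 1 did not pass. Beside this and the neighbour counts below, 29.8% of all genes passed as higher and 28.8% as lower. DDR2, a collagen receptor kinase upstream of RGS4, averaged 391 ± 11.8 CPM in DLX5-overexpressing cells and 165 ± 13.8 CPM in control cells (log2 fold change 1.24 ± 0.06 SE, edgeR adjusted p = 2.99e-15). UAP1 was higher as well (0.39 ± 0.07 SE, edgeR adjusted p = 4.17e-05). NUF2, a kinetochore gene that overlaps RGS5 on the other strand, was lower by far less than RGS5 (-0.24 ± 0.07 SE, edgeR adjusted p = 0.00557). AL499616.1, an antisense RNA gene that lies inside RGS5 on the opposite strand, averaged 0.430 ± 0.0932 CPM in DLX5-overexpressing cells and 6.27 ± 0.705 CPM in control cells (-3.84 ± 0.27 SE, edgeR adjusted p = 2.00e-12). RGS5 held 5166% as many counts as NUF2 and 78100% as many as AL499616.1, and with the strand setting unknown their reads cannot be told apart from those of RGS5.

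RGS16 lies 37407 bases from RGS8, and both were lower. Of the 6 other genes tested within 500 kb of them 3 were higher, 1 lower and 2 did not pass. LAMC1, a laminin chain, was at 1128 ± 34.4 CPM in DLX5-overexpressing cells and 389 ± 31.0 CPM in control cells (1.54 ± 0.06 SE, edgeR adjusted p = 3.07e-17). LAMC1-AS1, also among the 3 that were higher, lies inside LAMC1 on the other strand, with 93 counts against 73428 of LAMC1. With the strand setting unknown, the reads of LAMC1-AS1 and LAMC1 cannot be told apart. DHX9, an RNA helicase, was at 253 ± 12.4 CPM in DLX5-overexpressing cells and 506 ± 21.2 CPM in control cells (-1.0 ± 0.06 SE, edgeR adjusted p = 7.83e-14). RGS13 and RGS2 lie 148732 bases apart, and around them 2 of 5 other genes tested were higher, 1 was lower and 2 did not pass. Of these, B3GALT2 had 23.5 ± 3.04 CPM in DLX5-overexpressing cells and 0.942 ± 0.412 CPM in control cells (4.61 ± 0.19 SE, edgeR adjusted p = 2.87e-17). B3GALT2 lies inside CDC73 on the other strand, which held 5455 counts against 1185 of B3GALT2 and was itself higher (0.29 ± 0.08 SE, edgeR adjusted p = 0.00222), and with the strand setting unknown their reads cannot be told apart. DDR2, UAP1, LAMC1, LAMC1-AS1, DHX9, B3GALT2 and CDC73 were named after their values were seen.

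**Figure D4:**
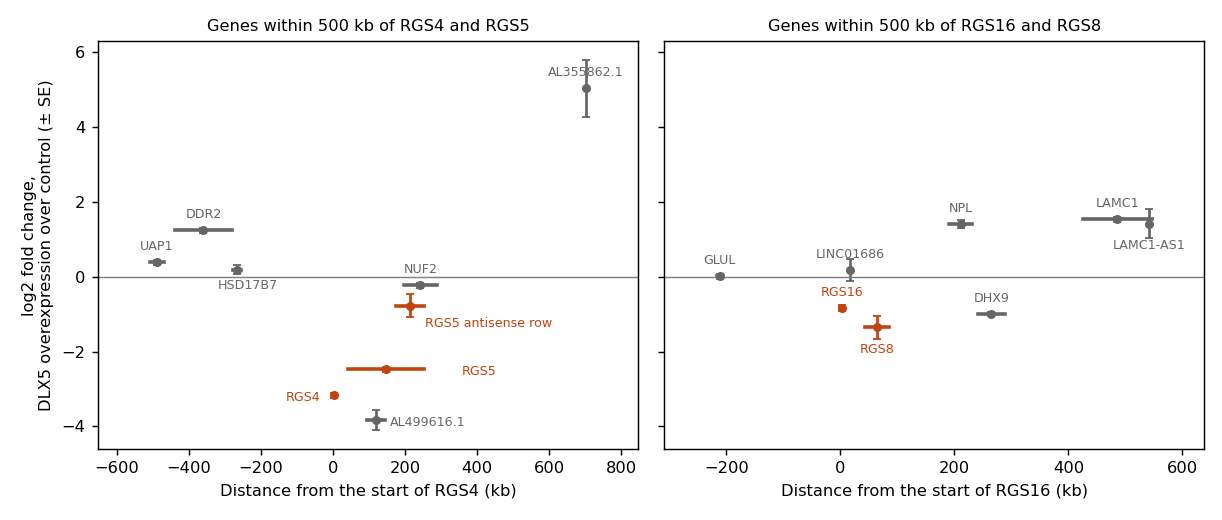
Fitted log2 fold change (DLX5 overexpression over control, with SE) of the genes tested within 500 kb of RGS4 and RGS5 (left) and of RGS16 and RGS8 (right), against the distance from the start of RGS4 or RGS16 in kb; horizontal bars span each gene and RGS genes are orange. In both panels other genes lie above and below 0, and RGS4 (-3.17), RGS5 (-2.48) and AL499616.1 (-3.84) are the lowest in the left panel.

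The protein-coding genes whose CPM over the 6 libraries were most like those of RGS4 were CHGA and CYB561, with root-mean-square differences of 0.389 and 0.446 in log2(CPM + 0.5). CHGA, the secretory granule protein chromogranin A and one of the sympathetic markers above, averaged 54.9 ± 3.81 CPM in DLX5-overexpressing cells and 745 ± 67.0 CPM in control cells. CYB561, a cytochrome of secretory vesicles, averaged 75.8 ± 3.58 CPM in DLX5-overexpressing cells and 381 ± 18.2 CPM in control cells. No protein-coding gene was as close to RGS5: the nearest, HSPA8 and HSP90AB1, differed from it by 1.00 and 1.01. The measure compares levels as well as group differences, and few genes are as abundant as RGS5, at place 7 in control cells. The log2 fold changes of HSPA8 (-1.12 ± 0.06 SE) and HSP90AB1 (-0.46 ± 0.06 SE) were smaller than that of RGS5 (-2.48). Shared regulation of any of these genes was not tested.

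The partners and targets of RGS proteins were counted from lists written by family or role. For each list here and in the paragraphs below, the background is 29.8% of all genes tested passing as higher and 28.8% as lower. No list was tested as a set, and nothing is read from the counts. The R7 proteins need GNB5, and GNB5 did not pass (0.11 ± 0.08 SE, edgeR adjusted p = 0.246), with 35.7 ± 3.21 CPM in DLX5-overexpressing cells and 32.9 ± 1.81 CPM in control cells (SD, n = 3 each). GPR158, an orphan receptor that anchors RGS7, did not pass either (-0.19 ± 0.22 SE, edgeR adjusted p = 0.476). Of the other 3 partner genes none was tested: RGS7BP had 0 counts in all libraries, RGS9BP 18 counts in DLX5-overexpressing cells and 15 in control cells, and GPR179 9 counts in DLX5-overexpressing cells and 29 in control cells.

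Of the 12 G protein alpha subunit genes tested 3 were higher, 8 were lower and 1 did not pass; the median log2 fold change was -0.23. The Gi alpha subunits did not move together. GNAI2 averaged 280.1 ± 5.08 CPM in DLX5-overexpressing cells and 135 ± 3.19 CPM in control cells (1.05 ± 0.06 SE, edgeR adjusted p = 1.18e-14), and GNAI1 286 ± 12 CPM in DLX5-overexpressing cells and 143 ± 7.74 CPM in control cells (1.0 ± 0.06 SE, edgeR adjusted p = 1.16e-13). GNAI3, named after its values were seen, was lower (-0.42 ± 0.07 SE, edgeR adjusted p = 7.22e-06), as were GNAO1, the Go alpha subunit of neurons (-0.55 ± 0.06 SE, edgeR adjusted p = 2.23e-08), and GNAZ, the Gz alpha subunit on which RGS20, RGS19 and RGS17 act (-0.93 ± 0.07 SE, edgeR adjusted p = 4.95e-12). Summed over GNAI1, GNAI2, GNAI3, GNAO1 and GNAZ the level was 69.9 ± 1.61 FPKM in DLX5-overexpressing cells and 59.4 ± 1.02 FPKM in control cells, and that of GNAQ and GNA11, the Gq kind, 31.5 ± 1.39 FPKM in DLX5-overexpressing cells and 36.8 ± 0.663 FPKM in control cells (SD, n = 3 each).

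Of the 13 beta and gamma subunit genes tested 6 were higher, 4 lower and 3 did not pass; the median log2 fold change was 0.09. GNG4, a gamma subunit of neurons, averaged 181 ± 7.62 CPM in DLX5-overexpressing cells and 499 ± 8.9 CPM in control cells (-1.47 ± 0.06 SE, edgeR adjusted p = 1.46e-17), and GNG8 was lower as well (-1.21 ± 0.11 SE, edgeR adjusted p = 4.92e-10). GNG12 averaged 163 ± 14.4 CPM in DLX5-overexpressing cells and 67.2 ± 4.84 CPM in control cells (1.27 ± 0.07 SE, edgeR adjusted p = 1.65e-14). GNB1, the most abundant beta subunit gene by CPM, was lower by a small amount (-0.30 ± 0.06 SE, edgeR adjusted p = 5.24e-05). GNGT2, picked out here only once its values were known, had 41 counts in DLX5-overexpressing cells and 1 in control cells.

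Among the 13 effector genes tested, 1 was higher, 5 were lower and 7 did not pass; the median log2 fold change was -0.18. PLCB1 and PLCB4, phospholipases activated by Gq, were lower (-0.73 ± 0.11 and -0.54 ± 0.10 SE, edgeR adjusted p = 1.49e-06 and 4.47e-05). So were the adenylyl cyclase ADCY1 (-0.31 ± 0.06 SE, edgeR adjusted p = 0.00019) and KCNJ9, a subunit of the potassium channels opened by beta-gamma subunits (-0.65 ± 0.14 SE, edgeR adjusted p = 0.000268). Of the 11 other regulators of alpha subunits tested 2 were higher, 2 lower and 7 did not pass; the median log2 fold change was 0.02. GPSM1, which holds alpha subunits in their inactive form, was lower (-0.49 ± 0.06 SE, edgeR adjusted p = 3.36e-07), as was the arrestin ARRB2 (-0.26 ± 0.07 SE, edgeR adjusted p = 0.00378). GPSM2 was higher (0.29 ± 0.08 SE, edgeR adjusted p = 0.00163) and overlaps CLCC1 on the other strand, which has 80.1% as many counts. CCDC88A was also higher (0.23 ± 0.06 SE, edgeR adjusted p = 0.00306). PCP2 had 0 counts in DLX5-overexpressing cells and 5 in control cells and was not tested.

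Proteins outside the RGS family that carry an RGS-type domain were counted as well: of 15 tested, 7 were higher, 3 lower and 5 did not pass; the median log2 fold change was 0.12. GRK3, a kinase that marks active receptors for arrestin, averaged 104 ± 4.92 CPM in DLX5-overexpressing cells and 312 ± 20.1 CPM in control cells (-1.58 ± 0.06 SE, edgeR adjusted p = 1.64e-17). GRK6, a kinase of the same family, was lower too (-0.57 ± 0.07 SE, edgeR adjusted p = 3.88e-08), and overlaps F12 on the other strand, which has 28.1% as many counts. ARHGEF1, a guanine nucleotide exchange factor, was higher (0.61 ± 0.07 SE, edgeR adjusted p = 1.57e-08). SNX25, a sorting nexin, was higher (1.0 ± 0.09 SE, edgeR adjusted p = 3.24e-10), but overlaps CFAP97 on the other strand, which has 317% as many counts.

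In the N-degron route that degrades RGS4, RGS5 and RGS16 proteins, 3 of the 8 genes were higher, none was lower and 5 did not pass; the median log2 fold change was 0.04. The genes that were higher included recognition proteins of the route. UBR4 averaged 431 ± 14.5 CPM in DLX5-overexpressing cells and 284 ± 40.3 CPM in control cells (0.60 ± 0.07 SE, edgeR adjusted p = 8.54e-08), and UBR2 had a log2 fold change of 0.50 ± 0.08 (SE, edgeR adjusted p = 3.46e-06). ADO, the oxidase that acts on the first cysteine, did not pass (0.06 ± 0.07 SE, edgeR adjusted p = 0.522). Nor did UBR1 (0.03 ± 0.08 SE, edgeR adjusted p = 0.769) and ATE1 (-0.04 ± 0.07 SE, edgeR adjusted p = 0.644), which were named after their values were seen. Only RNA was measured, so RGS protein levels are not known from these data.

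Receptors coupled to Gi or Gq that are described in neuroblastoma or sympathetic cells divided: of 18 tested 5 were higher, 8 were lower and 5 did not pass; the median log2 fold change was -0.02. The muscarinic receptors differed among themselves. CHRM1, coupled to Gq, averaged 8.22 ± 0.111 CPM in DLX5-overexpressing cells and 61.5 ± 3.68 CPM in control cells (-2.90 ± 0.09 SE, edgeR adjusted p = 4.80e-20), while CHRM3, coupled to Gq as well, averaged 41.5 ± 1.45 CPM in DLX5-overexpressing cells and 9.83 ± 1.51 CPM in control cells (2.08 ± 0.10 SE, edgeR adjusted p = 7.51e-16). CHRM2, coupled to Gi, averaged 80.8 ± 2.19 CPM in DLX5-overexpressing cells and 34.5 ± 2.99 CPM in control cells (1.23 ± 0.07 SE, edgeR adjusted p = 7.91e-14). BDKRB2, the bradykinin receptor coupled to Gq, averaged 6.34 ± 1.6 CPM in DLX5-overexpressing cells and 41.1 ± 3.52 CPM in control cells (-2.70 ± 0.12 SE, edgeR adjusted p = 1.99e-16).

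**Figure D5:**
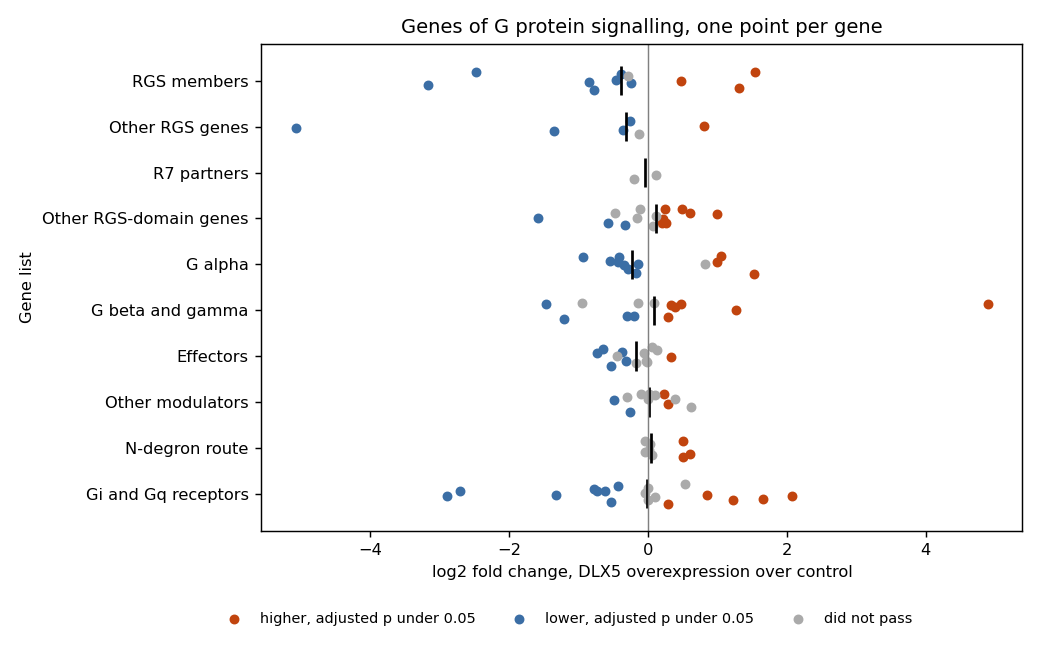
Fitted log2 fold change (DLX5 overexpression over control) of each gene tested, by list, with genes that passed an edgeR adjusted p under 0.05 in orange (higher) or blue (lower), the others in grey, and a black line at each list's median. The medians run from -0.39 for the RGS members to 0.12 for the other RGS-domain genes, and every list but the R7 partners and the N-degron route holds genes that passed in both directions.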

How the data were processed

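Total RNA of 6 SY5Y samples was sequenced, 3 labelled DLX5 overexpression and 3 control, per the labels. The deposited gene counts are whole numbers that the authors made with HISAT2 2.0.5 and featureCounts 1.5.0-p3, per the submitters' processing notes, and no source used here gives the strand setting. Those notes name hg19, yet all 58735 genes have the identifiers and coordinates of GENCODE 29 on GRCh38, so coordinates are given as GRCh38. The authors' FPKM values, also deposited, are these counts divided by gene length and by a total that is 0.968 to 1.03 times the summed counts, so they are no second measurement.

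Counts were tested with edgeR 4.0.16 in R 4.3.3 (filterByExpr, TMM, two-sided quasi-likelihood test, Benjamini-Hochberg adjustment over 17269 genes, no covariate, passing under 0.05). The biological coefficient of variation was 6.17%. An SE is the log2 fold change over the square root of F. It can understate counting error at low counts, where a ratio of 1 to 3 counts has an exact 95% interval that covers counting error only. All 6 libraries were kept as separate samples, since chi-square over its degrees of freedom was 2.32 to 5.52 within groups. The fit was tested on simulated data with 16834 genes, and recovered 67.3% of 1.5-fold, 91.5% of 2-fold and 100% of 4-fold changes, while 7 of 16644 unchanged genes were called. The simulation started from control means, changed few genes in random directions and gave all genes the same coefficient of variation. In the real contrast 58.6% of genes passed, so these rates are not its error rates.

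Members and lists were chosen with earlier results of these data known. All genes named RGS are named. From each other list the 4 genes with the smallest adjusted p and at least 1 CPM in a group are named, with genes overlapping a member and, for RGS4 and RGS5, the 2 most similar genes; other names are marked as chosen after their values were seen or stand beside a count. A gene that the rule names is not reported here. Alternatives were RLE factors, library totals, DESeq2 1.42.0, other filters, a replicate block, limma 3.58.1 on log2(FPKM + 1) and log2(FPKM + 0.1), a threshold of 0.01, and each library left out.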

Additional observations from a re-analysis of the deposited data

How the results depend on the processing

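Over 15 alternatives, the fold changes of RGS4 ran from -3.24 to -3.07, of RGS5 from -2.55 to -2.44, of RGS16 from -0.91 to -0.78, of RGS10 from 1.42 to 1.64 and of RGS3 from 0.27 to 0.55, each past the threshold of its setting. The alternatives refit the libraries on which these genes were picked, so the passes describe the processing and are no further support. RGS20 ran from 0.58 on log2(FPKM + 1), a scale that understates changes of low genes, to 1.44. The number of the 11 member rows past the threshold ran from 7 to 11, through RGS2, RGS7, RGS17, RGS19 and the second RGS5 row. With each library left out it ran from 7 to 9. Of 975 values of named genes under alternatives, 937 kept direction and side of the threshold, 34 were no longer past it, 2 came past it and 2 changed sign. Both sign changes were of ADO, whose value of 0.06 was -0.011 with library totals and ran from -0.012 (without control replicate 3) to 0.11 with each library left out, none past the threshold. CCDC88A no longer passed with limma. No partner gene of the R7 proteins passed, but 1 did with no filter on low counts, and 0 to 1 with each library left out; it was GPR179, which then has enough counts to be tested. Library totals gave 4555 genes as higher and 5762 as lower, where TMM gave 5152 and 4969, and moved the median of all genes to -0.07. The replicate numbers gave no sign of pairing in correlations of log2 CPM deviations from the group mean. These ran from -0.0399 to 0.0944 for same-numbered libraries and from -0.0964 to 0.0976 for other pairs across groups. With 3 libraries per group they cannot exclude a pairing. With the number as a block 5208 genes were higher, 5016 lower and 9 member rows past the threshold. Depth limits RGS13, RGS6 and RGSL1, which held 0 to 2 counts with DLX5. The cause of these shifts was not tested.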
